A study of Sus scrofa with 9 samples.

Results

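The SLC25 genes encode mitochondrial carriers, and here they were read in biopsies of transplanted pig kidneys. Members were the genes whose array annotation gives a single symbol starting with SLC25A, and where a gene had several probe sets the brightest on average was taken. This gave 33 genes, from 35 probe sets, among the 12362 named genes and 19124 probe sets of the array, and all 33 gene IDs carry the same symbol in RefSeq. Male Yorkshire pigs of about 30 kg, 9 in all, each gave 1 array. In every animal the right kidney had 30 min of warm ischemia, a stop of blood flow, was rinsed and returned to its own donor, the left kidney was taken out, and the biopsy followed on day 3. NEVKP kidneys (n = 3) had normothermic ex vivo kidney perfusion, warm flow outside the body, for 8 h before reimplantation, SCS kidneys (n = 3) lay in static cold storage for 8 h, and No Storage kidneys (n = 3) went back directly. NEVKP and SCS are together called the preserved groups. All 3 groups therefore carry warm ischemia, reimplantation and loss of the other kidney, and no uninjured kidney was analysed here.

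SLC25 carriers sit mostly in the inner mitochondrial membrane, where each moves a particular set of small molecules between the cytosol and the matrix: ADP and ATP, phosphate, Krebs cycle acids, amino acids, acylcarnitines, cofactors and iron. They are made in the cytosol from nuclear genes and imported. Kidney tubules, above all the proximal tubule and the thick ascending limb, are dense in mitochondria, since salt and solute reabsorption is paid for with ATP. The values are log2 intensities made by RMA, and levels of different genes are not compared, because probe sets differ in response. A biopsy mixes cell types, so fewer cells of a type and less RNA per cell cannot be told apart.

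Most carrier transcripts gave lower signals in SCS kidneys than in No Storage kidneys, and SLC25A4, 1 of 33, fell past the threshold of a limma adjusted p under 0.05 over all probe sets. Of all probe sets 0.162% passed, and 0.0941% of all probe sets passed as lower. Of the 33 log2 differences 25 were below 0, 75.8%, where 48.3% of all probe sets were, and the median was -0.39 for the family and 0.0096 for all probe sets. The 3 SCS arrays all lay below the 3 No Storage arrays for 16 members and all above for 2, SLC25A33 and SLC25A37. Together these made up 54.5% of the family, whereas 22.9% of all probe sets did not overlap, 11.6% as lower and 11.3% as higher. An unadjusted p under 0.05 was found for 16 lower members and 1 higher member, 51.5%, against 15.5% of all probe sets, 7.79% as lower and 7.75% as higher. Carriers gave brighter signals than most probe sets, with a median percentile of 81.5. Of the 14343 probe sets above the dimmest 25%, 27.3% did not overlap between SCS and No Storage.

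In NEVKP against No Storage the differences of the carriers ran from -0.55 to 0.28 with a median of -0.20, and that of all probe sets was -0.011. Of the 33, 24 were below 0, 72.7%, where 52.3% of all probe sets were. The NEVKP arrays lay below the No Storage arrays for 8 members and above for none, 24.2% of the family, and 16.5% of all probe sets did not overlap, 8.57% as lower and 7.94% as higher. In limma 0 of 33 passed the adjusted threshold, as did 0% of all probe sets. An unadjusted p under 0.05 was found for 4 members, all lower, 12.1%, against 9.07% of all probe sets, 4.4% as lower and 4.67% as higher.

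NEVKP against SCS gave 25 differences above 0 and 8 below 0. The latter were 24.2% of the family, where 54% of all probe sets were below 0. The median was 0.18 for the family and -0.021 for all probe sets. The NEVKP arrays lay above the SCS arrays for 6 members, SLC25A3, SLC25A4, SLC25A11, SLC25A17, SLC25A36 and SLC25A45, and below for SLC25A33. That was 21.2% of the family, and 11.8% of all probe sets did not overlap, 5.01% as higher and 6.78% as lower. In limma 0 of 33 passed the adjusted threshold, with 0% of all probe sets. An unadjusted p under 0.05 was found for 3 members, all higher, 9.09%, against 7.5% of all probe sets, 3.8% as higher and 3.7% as lower. In the F test among the 3 groups 0 of 33 passed in limma, where 0.00523% of all probe sets did, and 10 had an unadjusted p under 0.05, 30.3% against 12.8%. Both comparisons with No Storage share its 3 arrays, and both comparisons with SCS share the 3 SCS arrays. The differences above 0 for NEVKP against SCS are therefore not independent of those below 0 for SCS against No Storage.

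**Figure D1:**
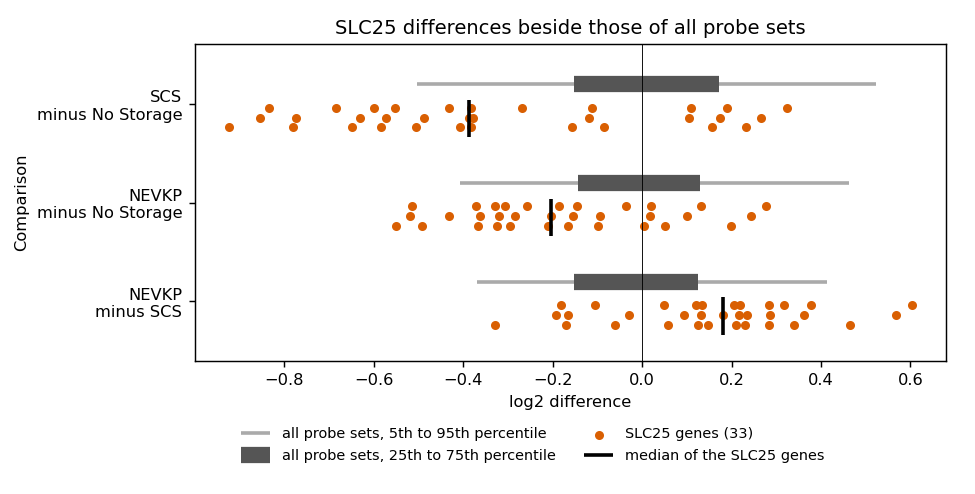
Log2 differences of the 33 carrier genes (points, spread vertically for legibility) in 3 comparisons, each beside all probe sets (thin bar, 5th to 95th percentile; thick bar, 25th to 75th percentile). The carriers' median (black tick) lies at -0.39 for SCS minus No Storage, -0.20 for NEVKP minus No Storage and 0.18 for NEVKP minus SCS.

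SCS replicate 2 stood apart. Its array weight in limma was the lowest, 0.46 on a scale that reached 1.62, followed by NEVKP replicate 2, and it held the lowest value of all 9 arrays for 15 of 33 members. The mean over the family, in log2 units, was 7.77, 7.70 and 7.70 in the NEVKP arrays, 7.64, 7.40 and 7.67 in the SCS arrays and 7.80, 7.98 and 7.92 in the No Storage arrays. The groups did not overlap on this mean, and SCS replicate 2 was the lowest array. Without SCS replicate 2 the family median was -0.27 for SCS against No Storage and 0.062 for NEVKP against SCS. The SCS arrays still lay lower for 17 members and higher for 3 without this array, where 32.9% of all probe sets did not overlap, since fewer arrays overlap less often. For NEVKP against SCS the same omission left 21.2% of the family and 20.9% of all probe sets without overlap, so the family's share was then close to that of the array. An unadjusted p under 0.05 was found for 10 members for SCS against No Storage without SCS replicate 2, all lower, where 12.3% of all probe sets had one. For NEVKP against No Storage that count was 8 without SCS replicate 2, which enters the shared spread, where 10.4% of all probe sets had one. It was 2 without NEVKP replicate 2, against 6.19% of all probe sets. Without No Storage replicate 2 or No Storage replicate 3 it was 1 each time, against 6.81% and 6.78% of all probe sets. For NEVKP against SCS it was 5 without SCS replicate 3, where 8.4% of all probe sets had one.

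Single members depended on these arrays too. The SCS difference from No Storage moved by over 1.5 times or changed sign without SCS replicate 2 for 12 of 33 members. SLC25A43 was the clearest, with -0.033 against -0.38 with all arrays. Without that array the difference was -0.32 for SLC25A13, -0.24 for SLC25A16, -0.53 for SLC25A21, -0.18 for SLC25A26 and -0.29 for SLC25A46. The NEVKP difference from No Storage moved as much without NEVKP replicate 2 for 18 of 33 members, among them SLC25A20 (-0.15) and SLC25A21 (-0.32). That of SLC25A37 was then 0.036, with the sign turned.

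**Figure D2:**
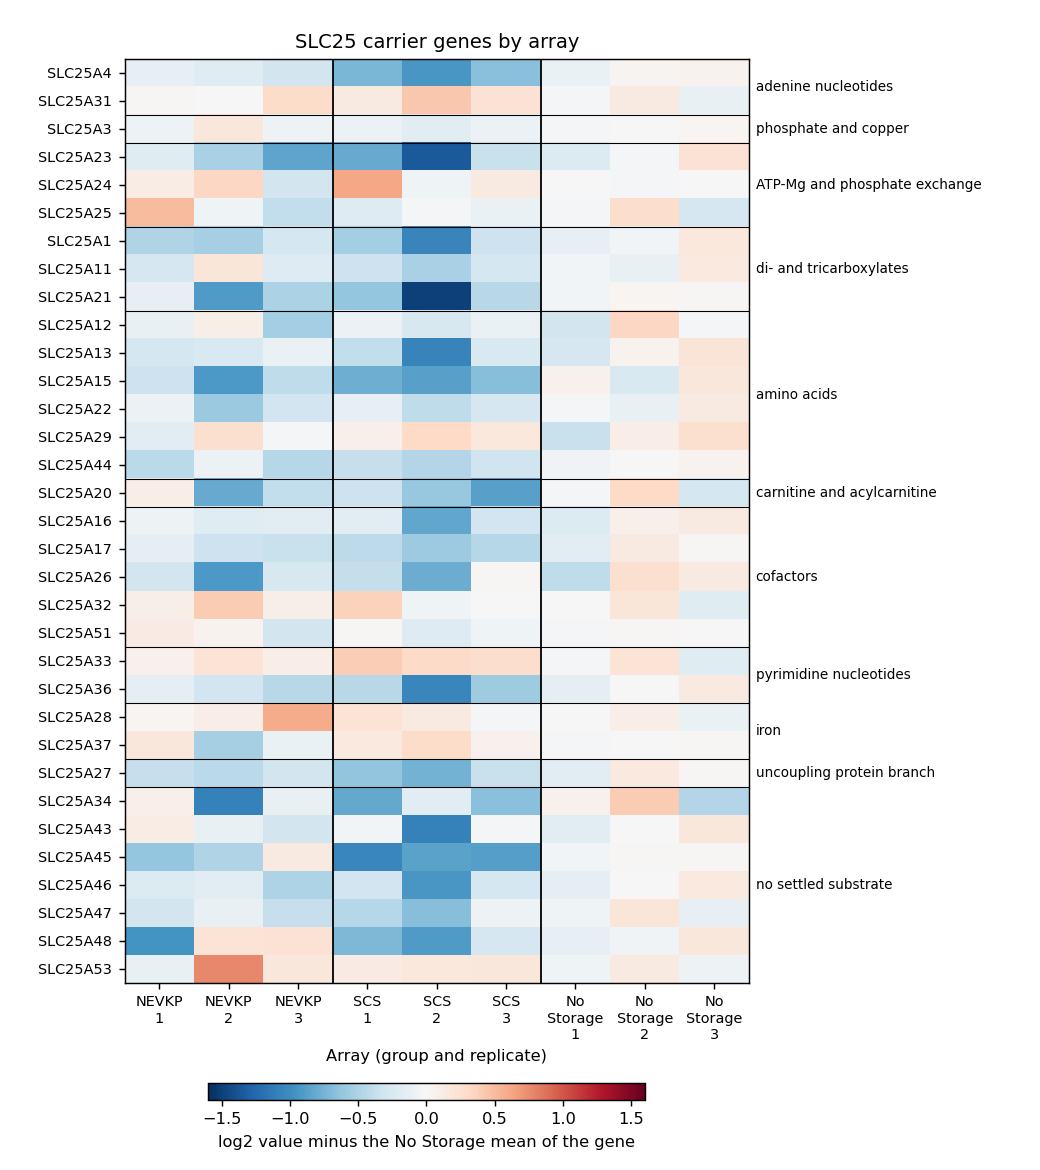
Log2 value of each carrier gene on each array minus the gene's No Storage mean (colour), with genes in rows by substrate and arrays in columns by group. Blue cells fill most of the SCS columns and are deepest in SCS replicate 2, with 27 of 33 genes below their No Storage mean there.

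The adenine nucleotide carriers exchange ADP for ATP across the inner membrane. SLC25A4 (NCBI Gene ID 100517196), the isoform best known from heart and skeletal muscle in mammals, read 8.96, 8.91 and 8.81 in the NEVKP arrays, 8.37, 8.17 and 8.43 in the SCS arrays and 8.99, 9.15 and 9.15 in the No Storage arrays. All SCS arrays lay below all others, and the NEVKP arrays lay in between, just below the No Storage arrays. Means were 8.89 ± 0.078 in NEVKP, 8.32 ± 0.14 in SCS and 9.10 ± 0.089 in No Storage (SD, n = 3). SLC25A4 fell in SCS by 0.77 against No Storage (SE 0.12, limma adjusted p = 0.0486), 1.71-fold lower. NEVKP differed from No Storage by -0.20 (95% interval -0.48 to 0.066, limma adjusted p = 0.652) and from SCS by 0.57 (limma adjusted p = 0.493). The call was lost on omission of most single arrays, though each omission also leaves fewer arrays to test with. Without No Storage replicates 1, 2 and 3 the adjusted p was 0.143, 0.108 and 0.212. Without SCS replicates 1 and 2 it was 0.146 and 0.132, and without NEVKP replicates 1 and 3 it was 0.0614 and 0.0721. Without SCS replicate 3 it was 0.0433, and without NEVKP replicate 2 it was 0.0405. With SCS and No Storage fitted alone it was 0.0618, and without SCS replicate 2 and NEVKP replicate 2 together 0.0887. The difference itself ran from -0.83 to -0.70 over all alternatives. SLC25A31, a carrier of the same group known from testis, was the 1 dim member, with a mean of 2.43 over all arrays, and its groups overlapped in every comparison.

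SLC25A3 (NCBI Gene ID 100302698) brings in the phosphate that ATP synthase uses, and also copper. Its signal was 11.09, 11.35 and 11.09 in the NEVKP arrays, 11.08, 11.00 and 11.08 in the SCS arrays and 11.15, 11.17 and 11.20 in the No Storage arrays. The SCS arrays lay below the others, but by little, with a difference from No Storage of -0.12 (95% interval -0.38 to 0.14, limma adjusted p = 0.693). The ATP-Mg carriers swap ATP-Mg for phosphate under control of calcium, and their 3 measured genes did not move alike. SLC25A23 differed by -0.84 in SCS (limma adjusted p = 0.154) and by -0.52 in NEVKP, both against No Storage. SLC25A24 differed by 0.23 and 0.051 in the same comparisons. SLC25A25 read 6.86, 6.29 and 5.96 in the NEVKP arrays, 6.15, 6.33 and 6.24 in the SCS arrays and 6.34, 6.64 and 6.08 in the No Storage arrays, with overlap between all groups and a difference of -0.11 for SCS.

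**Figure D3:**
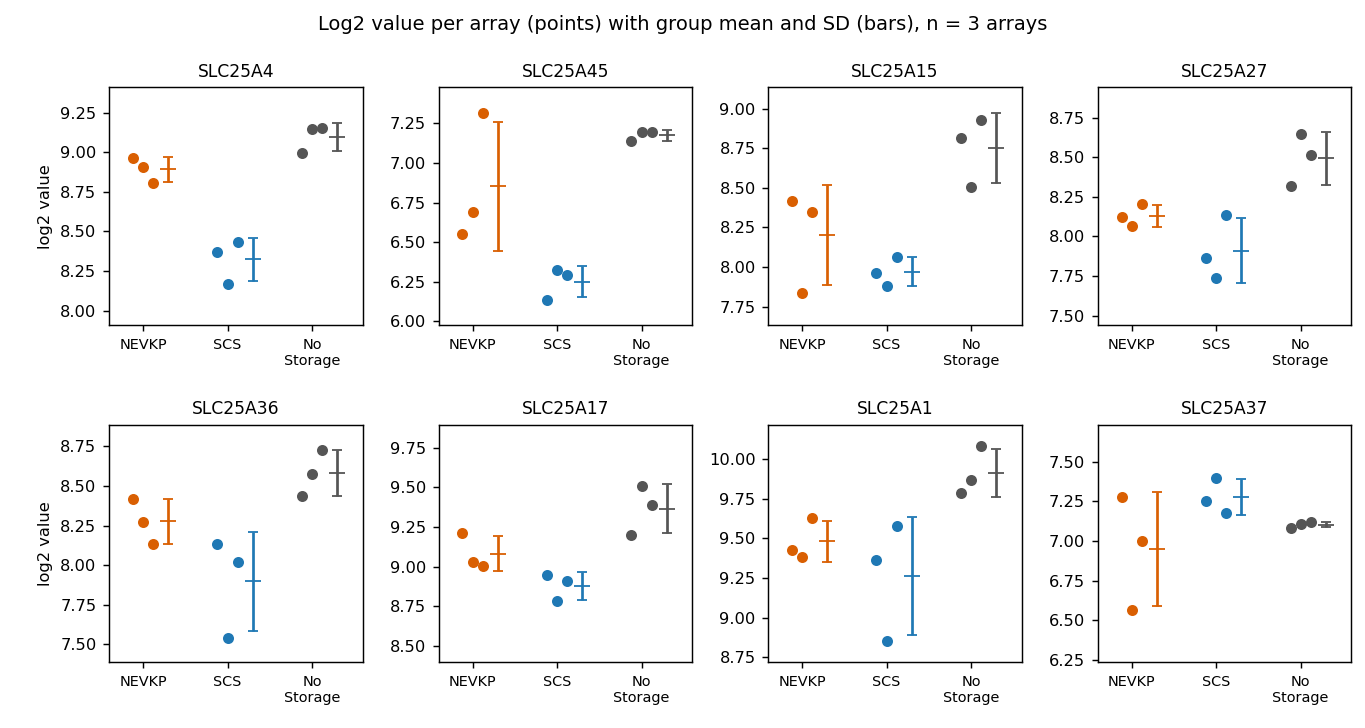
Log2 value per array (points) of 8 carrier genes, with the group mean and SD beside them, for NEVKP, SCS and No Storage (n = 3 each); the vertical span is the same in every panel. The SCS arrays of SLC25A4 lie between 8.17 and 8.43, below all other arrays, while those of SLC25A37 lie between 7.18 and 7.40, above the No Storage arrays.

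Carriers of di- and tricarboxylates link the Krebs cycle to the cytosol. All 3 measured genes had SCS arrays below the No Storage arrays, as did 11.6% of all probe sets. SLC25A1 (NCBI Gene ID 100154310), which exports citrate for lipid synthesis, read 9.43, 9.38 and 9.63 in the NEVKP arrays, 9.37, 8.85 and 9.58 in the SCS arrays and 9.78, 9.87 and 10.08 in the No Storage arrays. Both preserved groups lay below No Storage with no overlap. The difference was -0.65 for SCS (SE 0.18, limma adjusted p = 0.141) and -0.43 for NEVKP (limma adjusted p = 0.536). SLC25A11 (NCBI Gene ID 397390), which trades oxoglutarate for malate and can carry reducing equivalents in the malate-aspartate shuttle, read 9.54, 10.00 and 9.60 in the NEVKP arrays, 9.47, 9.30 and 9.52 in the SCS arrays and 9.77, 9.69 and 9.97 in the No Storage arrays. Its NEVKP arrays overlapped those of No Storage and lay above those of SCS, by 0.28 (limma adjusted p = 0.700). SLC25A21, an oxodicarboxylate carrier of lysine and tryptophan breakdown, differed by -0.85 for SCS and -0.52 for NEVKP against No Storage (limma adjusted p = 0.166 and 0.598), with an SD of 0.56 among the SCS arrays.

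Of 6 measured amino acid carriers, 3 had SCS arrays below all No Storage arrays, against 11.6% of all probe sets. Of the 6, 0 passed the adjusted threshold in any comparison. Of all probe sets 0.162% passed for SCS against No Storage, and 0% in either comparison with NEVKP. SLC25A15 (NCBI Gene ID 100511895), the ornithine and citrulline exchanger, read 8.41, 7.84 and 8.35 in the NEVKP arrays, 7.96, 7.88 and 8.06 in the SCS arrays and 8.81, 8.51 and 8.93 in the No Storage arrays. No SCS or NEVKP array reached the lowest No Storage array. The difference was -0.78 for SCS (SE 0.18, limma adjusted p = 0.0910) and -0.55 for NEVKP (SE 0.18, limma adjusted p = 0.439), the smallest adjusted p of the family for NEVKP against No Storage. The limma adjusted p for SCS was 0.0467 without NEVKP replicate 2, and ran up to 0.299 over the other alternatives, with 0.227 and 0.230 without SCS replicates 1 and 2 and 0.231 and 0.299 without No Storage replicates 1 and 3.

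SLC25A44, a carrier of branched-chain amino acids, read 7.20, 7.55 and 7.18 in the NEVKP arrays, 7.27, 7.17 and 7.32 in the SCS arrays and 7.58, 7.64 and 7.69 in the No Storage arrays. Both preserved groups lay below No Storage, by -0.38 in SCS and -0.32 in NEVKP. SLC25A22, a glutamate carrier, read 7.78, 7.28 and 7.57 in the NEVKP arrays, 7.74, 7.46 and 7.61 in the SCS arrays and 7.84, 7.76 and 8.02 in the No Storage arrays. Its SCS arrays lay just below those of No Storage, whereas 1 NEVKP array lay among them. SLC25A12 and SLC25A13 encode the calcium-binding aspartate-glutamate carriers of the malate-aspartate shuttle. SLC25A13 read 8.86, 8.90 and 9.03 in the NEVKP arrays, 8.74, 8.07 and 8.89 in the SCS arrays and 8.87, 9.20 and 9.34 in the No Storage arrays. Its difference for SCS, -0.57 (limma adjusted p = 0.229), was -0.32 without SCS replicate 2. SLC25A12 read 8.69, 8.90 and 8.27 in the NEVKP arrays, 8.71, 8.55 and 8.70 in the SCS arrays and 8.51, 9.14 and 8.77 in the No Storage arrays. The groups of SLC25A12 overlapped in every comparison, and so did those of SLC25A29, a carrier of basic amino acids, with a difference of 0.19 for SCS and 0.019 for NEVKP.

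SLC25A20 (NCBI Gene ID 100524459), the carnitine-acylcarnitine exchanger that brings fatty acids in for oxidation, read 8.58, 7.67 and 8.09 in the NEVKP arrays, 8.16, 7.88 and 7.61 in the SCS arrays and 8.45, 8.80 and 8.19 in the No Storage arrays. The SCS arrays lay below the No Storage arrays by a narrow margin, and the NEVKP arrays overlapped both groups. The difference was -0.60 for SCS (limma adjusted p = 0.277) and -0.37 for NEVKP (95% interval -0.91 to 0.18).

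Among 5 genes for cofactor carriers, 1 had SCS arrays below all No Storage arrays, against 11.6% of all probe sets. This was SLC25A17. Its protein sits in the peroxisome, unlike the rest of the family, and moves CoA, FAD and NAD. SLC25A17 read 9.21, 9.03 and 9.00 in the NEVKP arrays, 8.95, 8.78 and 8.91 in the SCS arrays and 9.20, 9.51 and 9.39 in the No Storage arrays. The NEVKP arrays lay above the SCS arrays, and 1 of them reached the lowest No Storage array. The difference was -0.49 for SCS (limma adjusted p = 0.120) and -0.28 for NEVKP (limma adjusted p = 0.549). The others differed between SCS and No Storage by -0.43 (SLC25A16, linked to CoA), -0.39 (SLC25A26, S-adenosylmethionine), -0.085 (SLC25A51, NAD) and 0.11 (SLC25A32, folate and FAD), with limma adjusted p from 0.280 to 0.829.

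The carriers of pyrimidine nucleotides, SLC25A33 and SLC25A36, differed from No Storage in opposite directions in SCS. SLC25A36 (NCBI Gene ID 100513238) read 8.42, 8.27 and 8.14 in the NEVKP arrays, 8.13, 7.54 and 8.02 in the SCS arrays and 8.44, 8.58 and 8.73 in the No Storage arrays. Each SCS array lay below each NEVKP array, though by a narrow margin, and both groups lay below No Storage. Its difference was -0.68 for SCS (limma adjusted p = 0.107) and -0.31 for NEVKP. SLC25A33 was 0.32 higher in SCS without overlap (limma adjusted p = 0.277), with 0.13 for NEVKP.

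The mitoferrins SLC25A37 and SLC25A28 bring iron to the matrix for heme and iron-sulfur clusters, and neither was lower in SCS. SLC25A37, best known from red cell precursors, read 7.28, 6.57 and 7.00 in the NEVKP arrays, 7.25, 7.40 and 7.18 in the SCS arrays and 7.08, 7.11 and 7.12 in the No Storage arrays. Its SCS arrays lay above those of No Storage by 0.17 (95% interval -0.21 to 0.55, limma adjusted p = 0.694), while 1 NEVKP array lay well below all others. SLC25A28 read 6.58, 6.66 and 7.15 in the NEVKP arrays, 6.77, 6.70 and 6.52 in the SCS arrays and 6.55, 6.65 and 6.45 in the No Storage arrays. All groups overlapped, and the differences from No Storage were 0.11 for SCS and 0.24 for NEVKP.

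SLC25A27, also called UCP4, belongs to the branch of uncoupling proteins and is best known from brain. It read 8.12, 8.06 and 8.20 in the NEVKP arrays, 7.86, 7.73 and 8.13 in the SCS arrays and 8.32, 8.65 and 8.52 in the No Storage arrays. No array of either preserved group reached the lowest No Storage array. The difference was -0.58 for SCS (limma adjusted p = 0.106) and -0.36 for NEVKP (limma adjusted p = 0.511). Of 7 members with no substrate assigned here, 6 had differences below 0 for SCS, where 48.3% of all probe sets did. For 3 of them the SCS arrays lay below all No Storage arrays, against 11.6% of all probe sets. SLC25A45 (NCBI Gene ID 100518597) read 6.55, 6.69 and 7.32 in the NEVKP arrays, 6.14, 6.32 and 6.29 in the SCS arrays and 7.14, 7.20 and 7.19 in the No Storage arrays. The 3 No Storage arrays were nearly alike and the SCS arrays lay far below them, while NEVKP replicate 3 lay above all of them and the other NEVKP arrays in between. The SCS difference, -0.92 (SE 0.18, limma adjusted p = 0.0652), was the lowest of the 33 but missed the threshold, and had a limma adjusted p of 0.0427 when SCS and No Storage were fitted alone. In the other alternatives that p ran from 0.0507 to 0.265, the highest without No Storage replicate 3, and was 0.168 without SCS replicate 2. SLC25A46, an outer membrane protein involved in mitochondrial shape, differed by -0.51, and SLC25A48 by -0.63. The arrays of SLC25A34, SLC25A43, SLC25A47 and SLC25A53 overlapped between SCS and No Storage, with differences of -0.55, -0.38, -0.41 and 0.16.

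**Figure D4:**
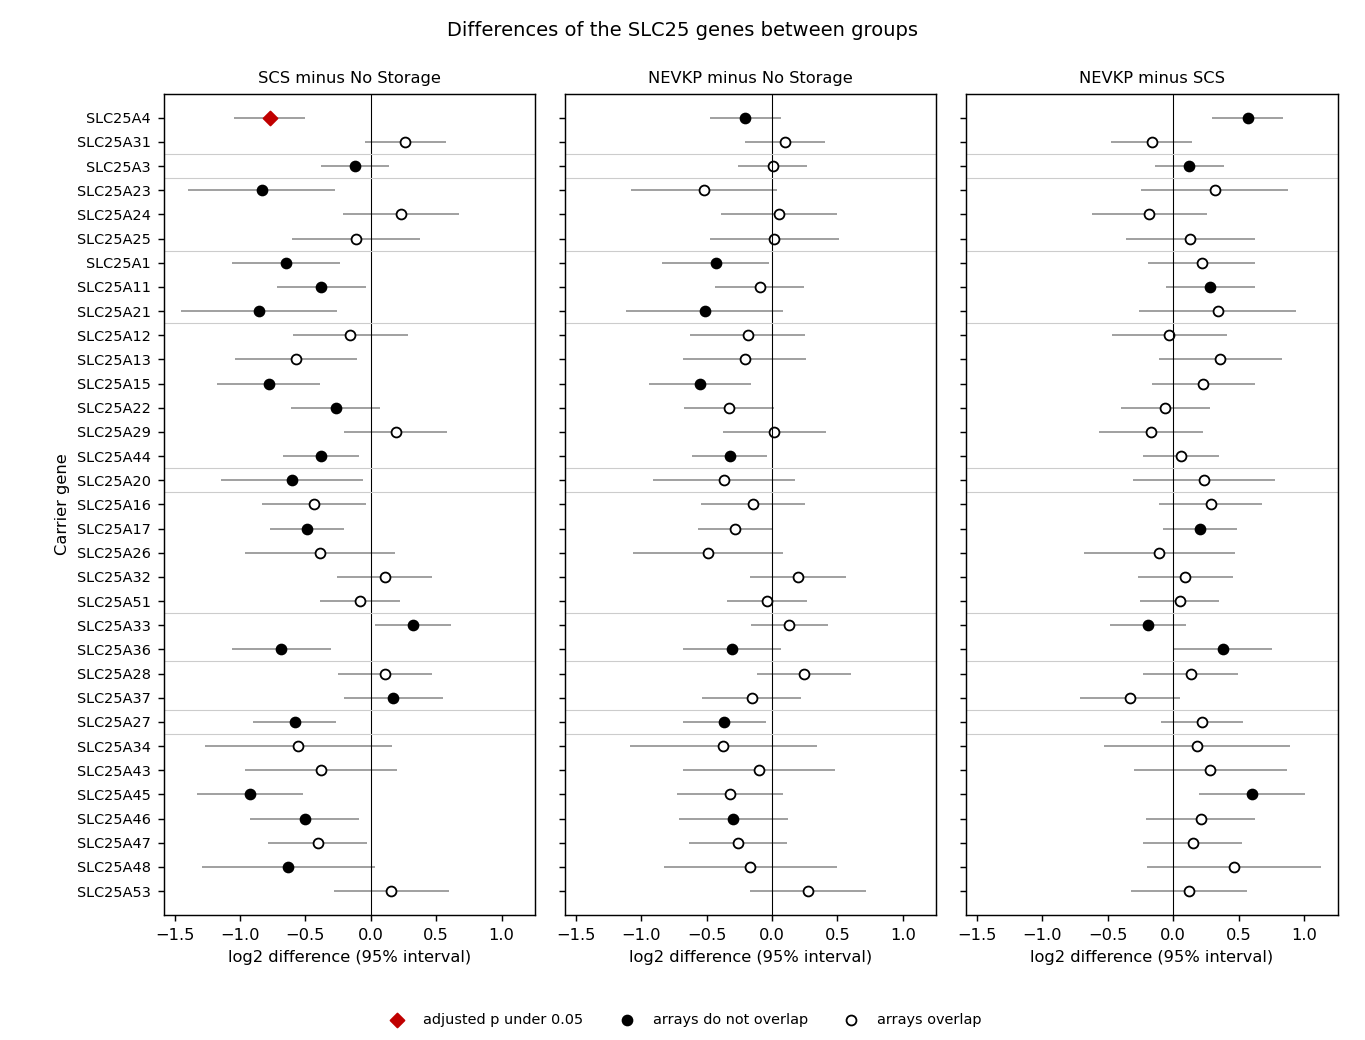
Log2 difference and its 95% interval from limma for each of 33 carrier genes in 3 comparisons, with genes in rows ordered by substrate. SLC25A4 in SCS minus No Storage is the 1 difference past the adjusted threshold (red diamond), 17 further members of that panel have arrays that do not overlap (filled points), and 25 of 33 lie left of 0. Of all probe sets 0.162% passed the threshold in that comparison, 22.9% did not overlap and 48.3% lay below 0.

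Genes of the same pathways were read from lists, and 0 of their members passed the adjusted threshold in limma in any of the 3 comparisons. Of all probe sets 0.162% passed for SCS against No Storage, and 0% in either comparison with NEVKP, so few calls could arise in short lists. For SCS against No Storage 48.3% of all probe sets had a difference below 0. Among 4 measured relatives that carry other symbols, MTCH2, an outer membrane insertase, differed by -0.45 for SCS, UCP3 by -0.39, and MTCH1 and UCP2 by -0.052 and -0.036. Of 9 genes that import carriers, the receptor gene TOMM20 differed by -0.65 (limma adjusted p = 0.0988), but the list's median was 0.051, and TOMM22, another receptor gene, lay higher by 0.27. Of 10 other mitochondrial transporters, 9 lay lower in SCS, with a median of -0.22. MPC2, a subunit of the pyruvate carrier, read 9.44, 9.38 and 9.42 in the NEVKP arrays, 8.98, 8.66 and 9.02 in the SCS arrays and 9.36, 9.43 and 9.45 in the No Storage arrays. Its NEVKP arrays overlapped those of No Storage and lay above those of SCS. The sideroflexin genes SFXN1 and SFXN5, for serine and citrate transport, differed by -0.65 and -0.51. Without SCS replicate 2 the difference was -0.34 for SFXN1, -0.25 for MTCH2 and 0.13 for UCP2, the last with the sign turned.

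Enzymes that work with the carriers were mixed. Of all probe sets 48.3% lay lower in SCS than in No Storage. For the carnitine shuttle, all 6 measured genes lay lower in SCS, with a median of -0.45, from ACSL1, which makes acyl-CoA (-1.26, limma adjusted p = 0.166), and CPT2, which frees the acyl group in the matrix (-0.79), to CROT, a peroxisomal acyltransferase (-0.067). For ornithine and urea, 4 of 6 lay lower: ASS1, which joins citrulline to aspartate, by -0.81 in SCS and -0.55 in NEVKP, ASL, which splits the product, by -0.46 and -0.72, OAT, the matrix enzyme of ornithine breakdown, by -0.51 in SCS but 0.10 in NEVKP, and NAGS, which makes the activator of urea synthesis, by -0.40 in SCS. ARG2 and OTC, the latter dim, lay higher in SCS, by 0.35 and 0.12, but differed by -0.39 and -0.19 in NEVKP. Of 6 genes of the malate-aspartate and citrate shuttles, the median was -0.084 in SCS. The aspartate aminotransferase genes GOT1 and GOT2 of the malate-aspartate shuttle differed by -0.54 and -0.47 in SCS. CS and IDH2, of citrate synthesis and isocitrate oxidation, differed by -0.14 and -0.033, and ACLY lay higher by 0.22. Of 8 genes of heme and iron-sulfur synthesis, the median was -0.27 in SCS and -0.24 in NEVKP. NFS1, the desulfurase that supplies sulfur for iron-sulfur clusters, had the smallest adjusted p of that list for NEVKP (-0.43, limma adjusted p = 0.428). Among 3 kinase genes of phosphate transfer, the matrix adenylate kinase gene AK3 differed by -0.65 in SCS and its relative AK4 by -1.02 in NEVKP. Among 7 regulators of mitochondrial gene expression the median was -0.095 in SCS. PPARA, a nuclear receptor of fat oxidation, differed by -1.23 in SCS (limma adjusted p = 0.0600) and ESRRG, an estrogen-related receptor, by -0.54. TFAM, which packs mitochondrial DNA, differed by -0.29 and ESRRA by -0.074. Without SCS replicate 2 the SCS difference was -0.25 for GOT2, -0.043 for CS, -0.13 for TFAM and 0.0039 for CROT, so that 5 of 6 carnitine shuttle genes lay lower, and the median of the heme list was -0.18. Without NEVKP replicate 2 the NEVKP difference was -0.57 for AK4, -0.28 for ASS1 and -0.088 for OAT.

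Tubule marker lists were lower in SCS kidneys, as were the carriers, and 0 of any list's genes passed the adjusted threshold in limma. Of all probe sets 0.162% passed for SCS against No Storage, and 0% in either comparison with NEVKP. The mean log2 level of 10 of 16 listed proximal tubule genes with a value was 9.82 to 10.71 in NEVKP, 9.89 to 10.46 in SCS and 10.76 to 10.85 in No Storage. Of the 10, 9 were lower in SCS than in No Storage without overlap, while SLC34A1 was higher without overlap. Of all probe sets 11.6% were lower and 11.3% higher without overlap. For 6 of 12 thick ascending limb and distal tubule genes it was 9.26 to 9.57 in NEVKP, 8.22 to 8.97 in SCS and 9.20 to 9.55 in No Storage. Here the NEVKP arrays overlapped those of No Storage, and the SCS arrays lay below both. The median difference of this list for NEVKP against No Storage was 0.11, but -0.12 without NEVKP replicate 2. That of the proximal tubule list was -0.53, and -0.26 without the same array. For 10 of 11 collecting duct genes it was 7.80 to 7.91 in NEVKP, 7.30 to 7.84 in SCS and 8.30 to 8.40 in No Storage. Both preserved groups lay below No Storage for this list. Leukocyte and matrix markers ran the other way, with 6.61 to 6.90 in NEVKP, 6.46 to 6.63 in SCS and 6.05 to 6.26 in No Storage for 12 of 15 leukocyte genes. For 10 of 11 fibroblast and matrix genes the levels were 9.67 to 9.92 in NEVKP, 9.80 to 10.16 in SCS and 9.08 to 9.28 in No Storage. Of the 16 proximal and distal tubule genes with a value, 13 lay above the 90th percentile of all probe sets by mean signal, TRPM6 at 70.0, SLC34A1 at 38.1 and PVALB at 31.6. The 4 muscle and fat genes with a value lay between 13.7 and 38.6. These percentiles describe the signals of probe sets and give no order of expression between genes. The part of cell makeup in the carriers' differences was not tested.

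**Figure D5:**
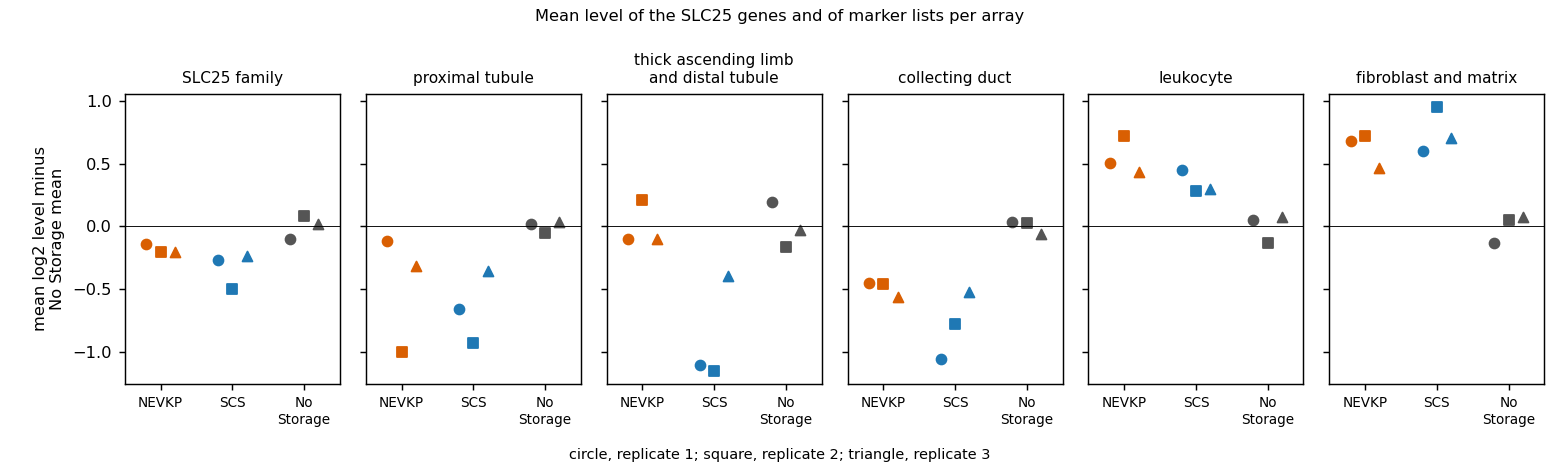
Mean log2 level per array, minus the No Storage mean, of the 33 carriers and of 5 marker lists, with symbols for the replicate. The carriers and the proximal tubule markers have their lowest arrays at SCS replicate 2 (-0.50) and NEVKP replicate 2 (-0.99).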

How the data were processed

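Biopsy RNA of each animal was put on 1 Affymetrix array. The authors deposited log2 intensities per probe set, made with RMA, per the submitters' processing notes, which also name limma 3.34.14. RMA equalises the distributions of arrays, which can shrink large differences. The build behind the array's annotation is not stated, and raw scans were not used here. Array medians ran from 5.70 to 5.80 on the log2 scale and arrays correlated at 0.974 to 0.991.

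From these values limma 3.58.1 (R 4.3.3) was fitted to all 19124 probe sets and 9 arrays by group alone, with 6 residual and 4.12 prior degrees of freedom. P values were adjusted over all probe sets by Benjamini-Hochberg at 0.05, and the fit was tested on simulated data. Some family genes had no value under a single SLC25A symbol, among them SLC25A5, SLC25A6, SLC25A10, SLC25A14, SLC25A30, SLC25A35 and SLC25A38 to SLC25A42. They are not members. UCP2, UCP3, MTCH1 and MTCH2 are family genes read under other symbols. Per-array values are given for members past the threshold, for the 6 of smallest p in each comparison and for a list of well-known carriers. Pathway lists give up to 3 genes per comparison by p, and IDH2 and CROT were added after their values were seen. The members and lists were chosen with earlier results of these data known.

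Alternatives were a replicate block, another prior (trended, robust), weighted arrays, no probe sets with a mean under 3.92, median-centred arrays, averaged probe sets, only the groups compared, and each array left out. Omission of SCS replicate 2 together with NEVKP replicate 2 and removal of duplicate probe sets were added after seeing the data.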

Additional observations from a re-analysis of the deposited data

How the results depend on the processing

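The difference of SLC25A4 between SCS and No Storage kept its sign under every alternative run. With the replicate number as a block, 0 carriers passed the adjusted threshold for SCS against No Storage in limma, and 0 passed without SCS replicate 2 and NEVKP replicate 2, a choice made after seeing the data. Leaving out each array in turn gave 0 to 2 carriers, while 0 to 158 of all 19124 probe sets passed, against 31 with all arrays. The limma adjusted p of SLC25A4 was 0.0680 with the replicate block and ran from 0.0330 to 0.212 over all alternatives. Same-numbered arrays correlated at -0.14 to 0.13 in their deviations from the group means, and 1 of 9 arrays correlated best with its own number, so the numbers were not taken as pairs. The family median for SCS against No Storage ran from -0.50 to -0.27 when arrays were left out in turn, and was -0.27 without both second replicates. For NEVKP against No Storage it ran from -0.29 to -0.17, and for NEVKP against SCS from 0.062 to 0.20, with 0.059 without both second replicates. Members whose arrays do not overlap numbered 20 to 23 for SCS against No Storage when an array was left out (30.4% to 35.1% of all probe sets), 9 to 16 for NEVKP against No Storage (25.2% to 29%), and 7 to 11 for NEVKP against SCS (20.9% to 23.2%), with 14 without both second replicates, where 36.4% of all probe sets did not overlap. The ranges of counts and of shares do not pair by omission. Without No Storage replicate 3 the 9 members for NEVKP against No Storage were 27.3% of the family, against 25.2% of all probe sets. These shares were close, though all 9 were lower, where 13.6% of all probe sets were. With 3 arrays a group, the number of arrays limits what can be called, and the causes of these shifts were not tested.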

Other observations

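A probe set annotated to both SLC25A5 and SLC25A6, further ADP/ATP carriers, could not be assigned to either gene. It read 10.51, 10.48 and 10.59 in the NEVKP arrays, 10.49, 9.99 and 10.53 in the SCS arrays and 10.64, 10.69 and 10.64 in the No Storage arrays. Both preserved groups lay below No Storage without overlap, by -0.32 for SCS (limma adjusted p = 0.355) and -0.13 for NEVKP (limma adjusted p = 0.855). SLC25A29 and SLC25A47 each had a second, dimmer probe set, with differences of 0.078 and 0.0026 for SCS against No Storage. The brighter probe sets, used for the members, gave 0.19 and -0.41, so those of SLC25A47 did not match. With averaged probe sets 15 lower members and 1 higher member had an unadjusted limma p under 0.05, where 15.6% of all probe sets had one. With the brighter probe sets 16 lower members had one.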
